A study of Mus musculus with 9 samples.

Results

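The mouse stefin A cluster is a run of related genes on chromosome 16 that encode small cytosolic protease inhibitors. Its members here are Stfa2l1, Gm5483, Stfa3, Stfa2, Stfa1 and BC100530, which are 6 of the 54532 genes in the deposited table. They were found by matching their symbols to the table's Ensembl identifiers through the GENCODE M21 annotation, and all 6 were found. They were selected on their deposited FPKM values in the KO, Gr_1 and fl libraries, with those levels known. Their levels, folds and fitted log2 changes are therefore a description, with no test.

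RNA of mouse myeloid cells was sequenced in 9 libraries, 3 in each of the groups KO, Gr_1 and fl. The KO mice carry the label of a SOCS3 knockout, and Gr_1 and fl are both labelled wild type. All groups are of C57BL/6 mice aged 6 to 8 weeks, the source of every library is given as white cells, and each title ends in A, B or C. The labels give neither the meaning of the names Gr_1 and fl, nor the Cre or targeting behind the knockout, nor whether libraries came from separate animals, and if they did not, the spread that p-values measure is technical.

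Stefins belong to the cystatin superfamily and block papain-type cysteine proteases, the cysteine cathepsins, by wedging into the active-site cleft. They lack a signal peptide and act inside the cell, whereas the cathepsins work mainly in lysosomes. Humans have a single gene, CSTA, known from skin and blood granulocytes, where the mouse has a family of copies.

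Depth was alike across libraries, at 18.3 to 21.5 M recovered fragments, and 11347 to 11700 genes per library reached 1 FPKM (fragments per kilobase of exon, scaled for depth). The deposited FPKM divide by 16.01 to 18.2 M in Gr_1 and by 18.5 to 22.0 M in the other libraries, not by the recovered totals. Some checks of the labels did not come out as the names imply. Socs3 itself had 9.23, 6.76 and 8.37 FPKM in the libraries labelled KO, 37.0, 36.6 and 33.0 FPKM in Gr_1, and 3.87, 4.02 and 3.40 FPKM in fl. It was thus higher, not lower, in the libraries labelled KO than in fl (log2 change 0.93 ± 0.11 SE, limma, adjusted p = 0.00136). A value per gene cannot show whether part of the gene was deleted, and every direction below that involves KO rests on this label. Lyz2, the lysozyme M gene of myeloid cells, had 53.2 to 59.8 FPKM in the libraries labelled KO, 10486 to 10808 FPKM in Gr_1 and 8670 to 9998 FPKM in fl. Library KO C held both Xist RNA (26.3 FPKM) and RNA of 4 Y-linked genes (14.2 FPKM in sum), whereas KO A held the Y-linked RNA (26.5 FPKM) and KO B the Xist RNA (58.5 FPKM). Every fl and Gr_1 library held the Y-linked RNA (16.6 to 39.3 FPKM), with at most 3 fragments of Xist. The libraries labelled KO thus also differ from both other groups in these sex-linked RNAs. These values cannot show whether KO C is independent of KO A and KO B. If it is not, the SD, SE and adjusted p for KO understate the spread. The stefin A levels in KO, and the calls for KO named below that are lost without KO C, are therefore also described without it.

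The 6 genes span 298.6 kb of chromosome 16 (GRCm38). Stfa2l1 (ENSMUSG00000059657, chr16:36156811-36161953), Gm5483 (ENSMUSG00000079597, chr16:36184212-36188111) and Stfa1 (ENSMUSG00000071562, chr16:36276951-36285373) lie on the plus strand. BC100530 (ENSMUSG00000071561, chr16:36359382-36367748), Stfa2 (ENSMUSG00000022902, chr16:36403992-36408457) and Stfa3 (ENSMUSG00000054905, chr16:36450537-36455392) lie on the minus strand. RefSeq calls Gm5483 Cstdc4 and BC100530 Cstdc5. Each has a transcript of 3 exons with a coding length of 294 or 312 bases, and coding identity over the 15 pairs lay between 72.4% and 98.0% (median 79.5%). Stfa1 and BC100530 were the closest pair in coding sequence, at 98.0%, and Stfa2l1 and Stfa2 came next, at 96.5%. The promoters were less alike, at 66.6% to 90.5% over 300 bases, with Stfa2l1 and Stfa2 the closest.

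All 6 promoters were found in RefSeq's table (GRCm38.p6), as 250 bases before and 50 after each annotated start. The stretch below is shown because it holds the longest run of letters that the 6 promoters share, ACCTTTAAAACCC, in capitals. Each line reads 5′ to 3′ on the gene's own strand.
Stfa2l1: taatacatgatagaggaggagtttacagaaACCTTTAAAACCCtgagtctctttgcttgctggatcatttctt
Gm5483: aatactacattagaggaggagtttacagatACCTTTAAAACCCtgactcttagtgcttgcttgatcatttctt
Stfa3: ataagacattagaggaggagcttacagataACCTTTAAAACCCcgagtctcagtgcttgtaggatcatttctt
Stfa2: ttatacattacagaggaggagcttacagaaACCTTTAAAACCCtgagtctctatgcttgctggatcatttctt
Stfa1: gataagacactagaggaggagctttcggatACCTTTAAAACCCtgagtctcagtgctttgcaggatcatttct
BC100530: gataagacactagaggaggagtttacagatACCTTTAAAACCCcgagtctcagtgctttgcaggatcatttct
These are chr16:36156745-36156817 and chr16:36184150-36184222 for Stfa2l1 and Gm5483, and chr16:36455384-36455456 and chr16:36408353-36408425 for Stfa3 and Stfa2. They are chr16:36277085-36277157 and chr16:36367540-36367612 for Stfa1 and BC100530. The run begins at base -36 of Stfa2l1, -32 of Gm5483 and Stfa2, -34 of Stfa3, -33 of Stfa1 and -12 of BC100530, with the annotated start as base 0.

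The 13-base run was found in 9 of 32851 RefSeq promoters on either strand (0.0274%), and all 9 are of this cluster. The 3 besides the members are those of Csta3, Cstdc3 and Gm7260. A further shared run of 13 bases, GATCATTTCTTCT, lies just downstream and was found in the same 9 promoters and in that of 1700010I02Rik on chromosome 3 (0.0304% of all). Of the short motifs searched on both strands, GAGGAA, a core bound by PU.1 and other ETS factors, was in 6 of 6 members (28.3% of all promoters). TTNNGNAA, a core for C/EBP factors, was in 5 of 6, with Stfa3 the exception (40.7% of all). In Stfa2l1 and Stfa2 this match, TTACAGAA, directly abuts the capitals printed above. CACCTG, an E-box, was in Stfa2l1, Stfa2, Stfa1 and BC100530 (20.2% of all). AGATAA, bound by factors of the GATA family, was in Stfa3, Stfa1 and BC100530 (11.2% of all), and in Stfa3 one match overlaps the first base of the shared run. TTCNNNGAA, a core for STAT factors, was in Gm5483 only among the 6 (8.30% of all), and TATAAA was in none (13.6% of all). A match is a run of letters, not a binding site.

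Related copies can share reads. The labels give reads of 125 and 150 bases, and of the 125-base stretches of each gene's 3-exon transcript, 100% in Stfa2l1, Stfa3 and Stfa2, 99.2% in Stfa1, 96.6% in Gm5483 and 91.7% in BC100530 occur in no other gene's transcripts. At 50 bases the unique share is lower, from 51.1% in BC100530 to 100% in Stfa3. By both lengths BC100530 has the smallest unique share. BC100530 also overlaps an antisense gene, Gm15845, which had at most 4 fragments in any library. The labels and notes do not say whether counting used the strand.

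Stefin A RNA was most abundant in Gr_1, intermediate in the libraries labelled KO and lowest in fl. Summed over the 6 genes it came to 66.1, 27.4 and 47.4 FPKM in KO A, B and C, to 353, 391 and 298 FPKM in Gr_1 and to 8.36, 6.06 and 5.67 FPKM in fl. No library of one group reached into the range of another. The mean sum was 7.01-fold higher in the libraries labelled KO than in fl (47.0 ± 19.4 against 6.70 ± 1.45 FPKM, SD, n = 3 each), and 6.98-fold higher without KO C. It was 51.9-fold higher in Gr_1 than in fl (347 ± 47.2 against 6.70 ± 1.45 FPKM), and the libraries labelled KO held 13.5% of the Gr_1 sum with or without KO C. In bulk RNA, more cells that make stefin A and more stefin A RNA per cell cannot be told apart.

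**Figure D1:**
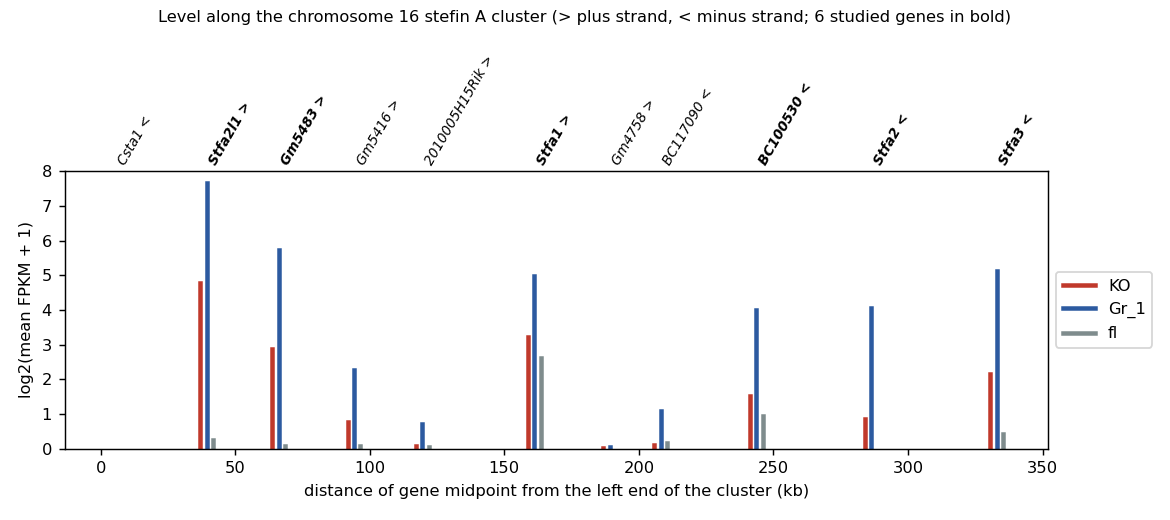
Mean level of each gene of the chromosome 16 cluster with a RefSeq stefin symbol, in KO (left bar), Gr_1 (middle bar) and fl (right bar), 3 libraries each. The vertical axis is log2(mean FPKM + 1). The horizontal axis is the distance of the gene's midpoint from the left end of the cluster in kilobases, and arrows give the strand. The members, in bold, lie on both strands, and Gr_1 is the highest group at each of them.

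The members fell into a pair of patterns, a grouping made after their values were seen. Stfa2l1, Gm5483, Stfa3 and Stfa2 were at or close to the floor of detection in fl. There, 3 fragments in a gene with 1 kilobase of exon correspond to 0.136 to 0.162 FPKM. For the shorter exons of Stfa2l1, Stfa3 and Stfa2 (412 to 471 bases) they correspond to more. Together they reached 36.8 FPKM in the libraries labelled KO, 302 FPKM in Gr_1 and 0.603 FPKM in fl. Folds below are ratios of fragments per these FPKM denominators, with a 95% exact interval that covers counting error only. The log2 changes come from limma on log2(FPKM + 1) over 12289 genes and understate the change of low genes.

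Stfa2l1, the member nearest to Stfa2 in sequence, had the highest FPKM of the 6 in KO and Gr_1. It had 37.1, 15.7 and 26.0 FPKM in the libraries labelled KO, 202, 220 and 179 FPKM in Gr_1, and 0.108, 0.460 and 0 FPKM in fl. Every fl library lay far under every other, since the fl values rest on 1, 4 and 0 fragments against 143 to 309 in KO and 1202 to 1677 in Gr_1. The fold was 133 (56.8 to 412) for KO against fl, with a fitted log2 change of 4.46 ± 0.27 (SE). For Gr_1 against fl it was 1034 (443 to 3187), with a log2 change of 7.42 ± 0.27. Stfa2l1 was 7.76-fold lower (7.16 to 8.43) in the libraries labelled KO than in Gr_1.

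Gm5483 followed the same order. It had 9.08, 3.06 and 6.77 FPKM in the libraries labelled KO, 51.6, 58.3 and 44.6 FPKM in Gr_1, and 0.0976, 0.103 and 0 FPKM in fl. Its groups did not overlap, and fl again rests on 4, 4 and 0 fragments. The fold was 88.7 (44.8 to 206) for KO against fl and 738 (374 to 1711) for Gr_1 against fl, and the level was 8.32-fold lower (7.70 to 9.01) in KO than in Gr_1. GENCODE M21 gives Gm5483 a second transcript with a retained intron, so its exons cover 1862 bases and its FPKM is divided by that length. Per kilobase of its 414-base 3-exon transcript, its fragments come to 28.4 ± 13.7 in the libraries labelled KO, 232 ± 30.7 in Gr_1 and 0.301 ± 0.261 in fl. On that length it stands above Stfa2l1, which has 26.3 ± 10.7, 200.6 ± 20.7 and 0.189 ± 0.240 in the same groups, so the order of the leading genes depends on the length used. The difference between these genes is about the size of the SD in Gr_1 and smaller than it in KO.

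Stfa3, which with Stfa1 and Stfa2 was among the first mouse stefins described, had 4.89, 2.34 and 3.12 FPKM in the libraries labelled KO, 33.0, 43.3 and 25.8 FPKM in Gr_1, and 0.441, 0.468 and 0.131 FPKM in fl. The lowest KO library was above the highest fl library. The fold was 9.56 (4.82 to 21.6) for KO against fl and 96.5 (50.6 to 212) for Gr_1 against fl, and the level was 10.1-fold lower (8.09 to 12.7) in KO than in Gr_1.

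Stfa2 was the member least often seen outside Gr_1. It had 1.07, 0.391 and 0.976 FPKM in the libraries labelled KO, from 10, 4 and 10 fragments, 18.4, 18.5 and 9.81 FPKM in Gr_1, and no fragment in any fl library. It passed the filter on low values only through Gr_1. Against a floor of 3 fragments over the 3 fl libraries, it was at least 7.73-fold higher in KO and at least 151-fold higher in Gr_1. It was 19.5-fold lower (12.9 to 30.8) in KO than in Gr_1.

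Stfa1 and BC100530, the pair closest in coding sequence, were present in every library of every group. Stfa1 had 11.1, 4.99 and 8.74 FPKM in the libraries labelled KO, 32.7, 33.0 and 26.7 FPKM in Gr_1, and 6.27, 4.55 and 4.65 FPKM in fl. Its KO and fl libraries overlapped, since KO B lay under fl A. The fold was 1.57 (1.33 to 1.87) for KO against fl, and 5.94 (5.15 to 6.89) for Gr_1 against fl. Stfa1 was 3.78-fold lower (3.35 to 4.26) in KO than in Gr_1.

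BC100530 had 2.93, 0.873 and 1.75 FPKM in the libraries labelled KO, 15.2, 17.9 and 11.5 FPKM in Gr_1, and 1.44, 0.488 and 0.890 FPKM in fl. KO and fl overlapped here too, and Gr_1 stood apart from both. The fold was 1.91 (1.33 to 2.79) for KO against fl and 15.8 (11.7 to 21.8) for Gr_1 against fl, and the level was 8.24-fold lower (6.60 to 10.4) in KO than in Gr_1. As a pair, Stfa1 and BC100530 came to 10.1 FPKM in the libraries labelled KO, 45.6 FPKM in Gr_1 and 6.09 FPKM in fl.

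**Figure D2:**
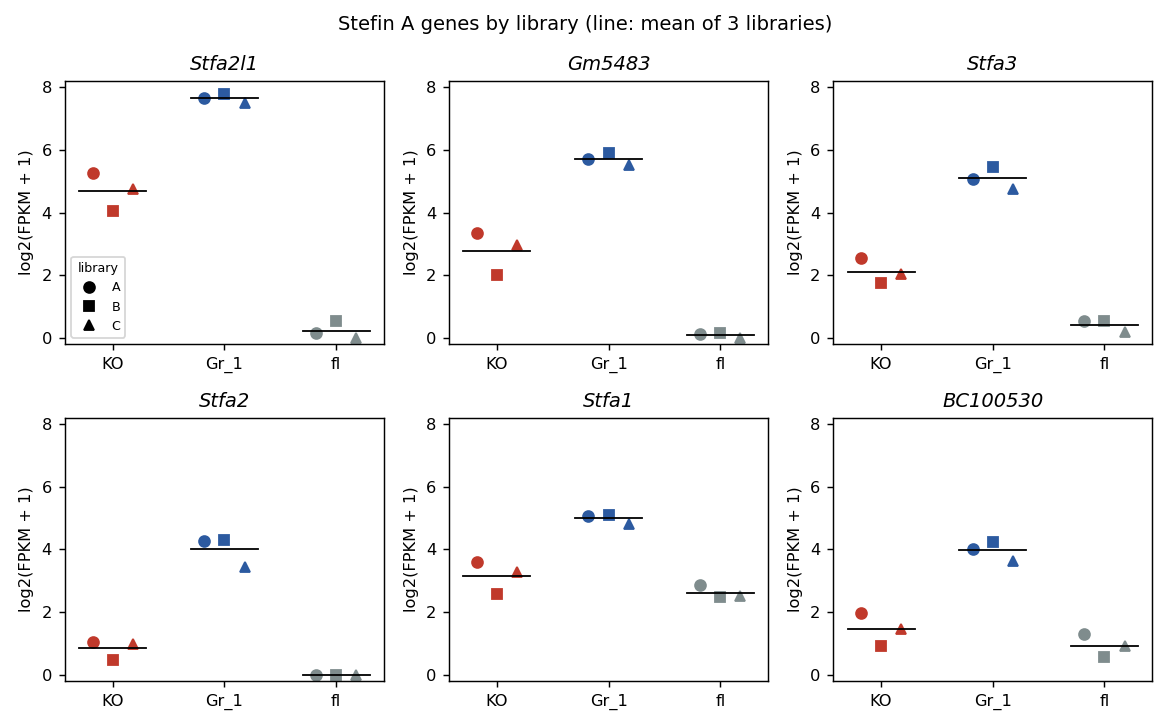
Level of each member in each library, as log2(FPKM + 1), with KO at the left, Gr_1 in the middle and fl at the right; circles, squares and triangles are libraries A, B and C and the line is the mean of the 3 plotted values. Stfa2l1, Gm5483, Stfa3 and Stfa2 lie at or near 0 in fl, while Stfa1 and BC100530 have KO and fl points that overlap.

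In the fit over all 12289 genes, 3 of the 6 members (Stfa2l1, Gm5483 and Stfa3) were called higher in the libraries labelled KO than in fl at an adjusted p under 0.05, where 11.0% of all genes were called and 4.48% of all genes as higher. The members' median log2 change was 1.27, and that of all genes was -0.01. For Gr_1 against fl, 6 of 6 were called higher, where 61.4% of all genes were called and 30.0% as higher (median log2 change of the members 4.34, of all genes -0.03). For KO against Gr_1, 6 of 6 were called lower, where 55.7% of all genes were called and 28.9% as lower (medians -2.95 and 0.01). The members were picked with these contrasts known, so nothing is read from the counts. Their median fold by fragments, with Stfa2 at its bound, was at least 8.65 for KO against fl and at least 124 for Gr_1 against fl. The comparisons also share libraries. Besides those given above for Stfa2l1, the fitted log2 changes for KO against fl were 2.68 ± 0.28 for Gm5483, 1.69 ± 0.24 for Stfa3, 0.84 ± 0.24 for Stfa2, 0.54 ± 0.23 for Stfa1 and 0.52 ± 0.28 for BC100530 (SE). For Gr_1 against fl they were 5.61, 4.68, 3.999, 2.37 and 3.04 for the same genes, with the same errors. For KO against Gr_1 they were -2.96 for Stfa2l1 and -2.93, -2.99, -3.16, -1.83 and -2.52 for the other 5, so the members differed less from each other there than against fl.

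The make-up of the stefin A RNA differed between fl and the other groups. Stfa2l1 made up 56.1 ± 1.23% of the summed FPKM in the libraries labelled KO, 57.9 ± 2.02% in Gr_1 and 2.96 ± 4.06% in fl. These shares depend on the length used. Per kilobase of 3-exon transcript, Gm5483 stood above Stfa2l1, at 28.4 against 26.3 in KO and 232 against 200.6 in Gr_1. Stfa1 made up 17.8 ± 0.946% in KO, 8.89 ± 0.424% in Gr_1 and 77.3 ± 4.03% in fl. With BC100530, the pair held 21.6 ± 0.514% of the sum in KO, 13.1 ± 0.371% in Gr_1 and 91.0 ± 7.43% in fl (SD, n = 3 each). The share of the pair did not overlap between any of the 3 groups. The fl shares rest on 294 fragments in all, against 1995 in KO and 11856 in Gr_1.

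**Figure D3:**
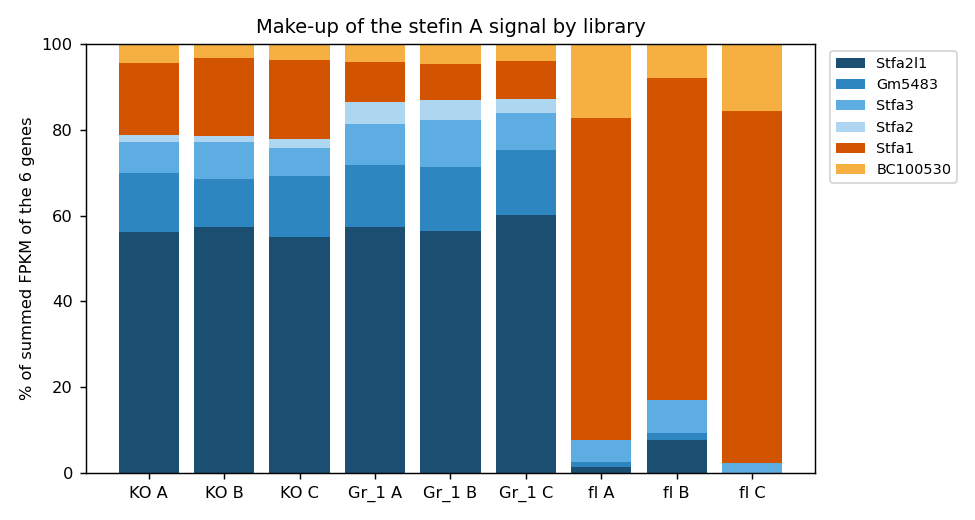
Share of each member in the summed FPKM of the 6 genes, in percent, for each library (KO, Gr_1, then fl); blue shades are Stfa2l1, Gm5483, Stfa3 and Stfa2 and orange shades are Stfa1 and BC100530. Blue shades take most of every KO and Gr_1 bar, and orange shades take 83.0% to 97.7% of the fl bars.

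In KO and Gr_1 the members had 1 order over the libraries, and in fl they did not. In the libraries labelled KO the order was A, then C, then B in 6 of 6 members, an order that 33.6% of all genes tested also showed. KO A exceeded KO B by 2.08-fold (Stfa3) to 3.36-fold (BC100530). KO C lay between them at 6 of 6 members (61.5% of all genes), at 0.864 to 1.34 times the mean of the other 2. In Gr_1 the order was B, then A, then C in 6 of 6 members (18.6% of all genes). In fl, Stfa2l1, Gm5483 and Stfa3 ran B, A, C, on 0 to 4 fragments per library, while Stfa1 and BC100530 ran A, C, B and Stfa2 had none. Over the 9 libraries, log2(FPKM + 1) of the 15 member pairs correlated with r between 0.871 and 0.994 (median 0.966), and with group means subtracted between 0.612 and 0.933 (median 0.781). The points share groups and libraries. The pair of highest r was Stfa1 and BC100530 by both measures, the closest in coding sequence. Stfa2l1 and Stfa2, next in coding sequence and closest in promoter, had r of 0.899 and 0.621, among the lowest by both.

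Markers of late neutrophils moved with the stefin A genes. Their summed level over 11 genes, none at 0 in any group, was 1396 to 3272 FPKM in the libraries labelled KO, 10355 to 11383 FPKM in Gr_1 and 586 to 615 FPKM in fl. Of the 11, 11 were called higher in KO than in fl, 11 were called higher in Gr_1 than in fl, and 11 were called lower in KO than in Gr_1 (limma, adjusted p under 0.05). The shares of all genes called in these directions were 4.48%, 30.0% and 28.9%. For KO against fl the growth factor receptor Csf3r lost its call without KO C (adjusted p = 0.0821), fl A (0.0652), fl B (0.0715) or fl C (0.0564), which leaves 10 of 11. In the libraries labelled KO, 11 of 11 markers had the same order A, C, B as the members, and 4 of 11 had the members' order in Gr_1. Their part in the stefin A levels was not tested.

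Set against these markers, the 6 members came to 2.02%, 1.96% and 2.04% of the marker sum in KO A, B and C, to 3.41%, 3.499% and 2.61% in Gr_1 and to 1.36%, 1.03% and 0.940% in fl. The ratio varied little among the libraries labelled KO while the levels themselves varied by more than 2-fold, and the 3 groups did not overlap. Stfa2l1, Gm5483, Stfa3 and Stfa2 alone came to 1.59%, 1.54% and 1.59% in KO, 2.95%, 3.04% and 2.28% in Gr_1, and 0.105%, 0.176% and 0.0218% in fl. The pair of Stfa1 and BC100530 ran otherwise, at 0.427%, 0.420% and 0.453% in KO, 0.462%, 0.455% and 0.336% in Gr_1, and 1.25%, 0.858% and 0.918% in fl. Relative to the marker sum the pair was thus highest in fl, with KO and Gr_1 overlapping. Retnlg weighs most in that sum, at 1357, 5492 and 397 FPKM in KO, Gr_1 and fl. The fl mean was 1.93% of the Gr_1 mean for the stefin A sum, 7.23% for Retnlg and 0.825% for Mmp9. The order of the groups in the ratio of the 6 members therefore depends on the marker used.

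**Figure D4:**
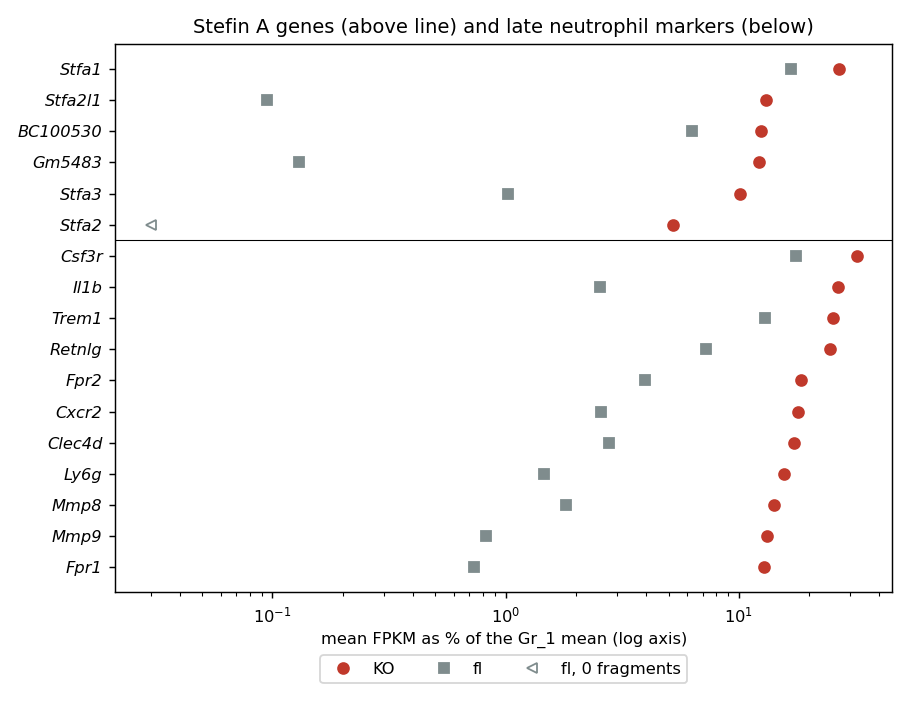
Mean FPKM in KO (circles) and in fl (squares) as a percentage of the Gr_1 mean, on a log axis, for the 6 members above the line and the 11 late neutrophil markers below it; the open triangle is Stfa2 in fl, which had 0 fragments and is drawn at the left edge. KO values lie between 5.21% (Stfa2) and 26.8% (Stfa1) for members and between 12.8% (Fpr1) and 32.2% (Csf3r) for markers.

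As a share of its own Gr_1 level, Stfa1 reached 26.8% in the libraries labelled KO, Stfa2l1 13.1%, BC100530 12.5%, Gm5483 12.2%, Stfa3 10.1% and Stfa2 5.21%. The median of the 11 markers was 17.9%. Without KO C these shares were 26.1% for Stfa1 and 4.69% for Stfa2, and the fold against fl was 139 for Stfa2l1, 90.6 for Gm5483, 10.4 for Stfa3, 1.56 for Stfa1 and 2.03 for BC100530.

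Markers of other cell types also moved between groups. The promyelocyte markers Elane, Mpo, Prtn3 and Ctsg summed to 4665 FPKM on average in the libraries labelled KO, 219 FPKM in Gr_1 and 4432 FPKM in fl. Of 9 monocyte markers, 8 were called lower in KO than in fl (6.52% of all genes were), and 7 or 8 with each library left out in turn. They summed to 741, 472 and 1219 FPKM in KO, Gr_1 and fl. Of 6 basophil and mast cell markers, 6 were called higher in KO than in fl (4.48% of all genes were), but 2 without KO C or fl B and 3 without KO B or fl A. They summed to 405, 125 and 139 FPKM in KO, Gr_1 and fl. B cell markers summed to 49.2, 201 and 59.3 FPKM in the same groups, with 4 of 4 called higher in Gr_1 than in fl (30.0% of all genes were). Erythroid markers summed to 71.9, 102 and 36.4 FPKM, with 4 of 4 called higher in Gr_1 than in fl (30.0% of all genes were). Without fl C 2 of 4 were called, and without Gr_1 A or Gr_1 B 1 of 3 tested. Eosinophil markers summed to 7842, 1974 and 6684 FPKM, with 5 of 6 called lower in Gr_1 than in fl (31.4% of all genes were). The part of these cells in the stefin A levels was not tested. Stefin A is also made by keratinocytes. Of 8 keratinocyte markers 5 (Krt5, Krt14, Krt1, Lor and Flg) had no fragment in any library. The 8 summed to 0.601 to 0.942 FPKM in KO, 0.577 to 0.709 in Gr_1 and 0.674 to 0.843 in fl. The part of keratinocytes in the stefin A levels was not tested either.

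Going by RefSeq symbols of stefins, which leaves out Gm7260, the cluster holds 5 further stefin genes. Gm5416, which RefSeq calls Csta3, was the one that passed the filter, at 0.702 ± 0.340 FPKM in the libraries labelled KO, 3.83 ± 0.743 FPKM in Gr_1 and 0.0546 ± 0.0946 FPKM in fl (13, 57 and 1 fragments in all). It passed only through Gr_1, so no test is given for it. Its fold by fragments was 69.6 (12.0 to 2795) for Gr_1 against fl, and it was 5.53-fold lower (2.99 to 11.0) in KO than in Gr_1. BC117090 had 2 fragments in KO, 22 in Gr_1 and 3 in fl. 2010005H15Rik had 2, 21 and 1 in the same groups, Gm4758 had 1, 1 and 0, and Csta1 had none. BC117090 and 2010005H15Rik, which did not pass the filter, had folds of 8.95 (2.69 to 46.7) and 25.6 (4.12 to 1060) for Gr_1 against fl, and their Gr_1 libraries overlapped with no KO or fl library.

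Of the 5 nearest other protein-coding genes on each side, 7 passed the filter. For KO against fl 1 of the 7 was called, where 11.0% of all genes were. This was Cd86, a co-stimulatory ligand 148477 bases beyond Stfa3, which was lower (1.77 ± 0.258 against 3.50 ± 0.609 FPKM, log2 change -0.70 ± 0.12, limma, adjusted p = 0.00857). For Gr_1 against fl 5 of 7 were called, where 61.4% of all genes were. Of these, 4 were lower (Fam162a, Cd86, Wdr5b and Ccdc58, log2 changes of -0.33 to -0.48), and 1 was higher, the peptide transporter Slc15a2 (1.51 ± 0.420 against 0.840 ± 0.350 FPKM, 0.45 ± 0.16, adjusted p = 0.0390). Of these 5, Cd86 alone was called with each library left out in turn. For KO against Gr_1, Wdr5b and Ccdc58 were higher (0.30 and 0.50) and none was lower, and both calls were lost when single libraries were left out.

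The cysteine cathepsins, the proteases that stefins bind as a class, ran the other way from the stefin A sum. Their summed level was 450 ± 36.6 FPKM in the libraries labelled KO, 282 ± 23.3 FPKM in Gr_1 and 790 ± 6.64 FPKM in fl. Of 10 listed, 9 passed the filter. For KO against fl 5 of 9 were lower and 1 was higher, with a median log2 change of -0.53. For all genes the shares were 6.52% lower and 4.48% higher, with a median of -0.01. The monocyte markers, at 741, 472 and 1219 FPKM in sum in KO, Gr_1 and fl, had the same order of groups as the cathepsin sum. The part of monocytes in the cathepsin levels was not tested.

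Among the cathepsins called, Ctss had the largest fall. This is the cathepsin of antigen-presenting cells that trims the class II invariant chain, and it was at 150 ± 32.4 FPKM in the libraries labelled KO and 345 ± 16.04 FPKM in fl (log2 change -1.22 ± 0.18, limma, adjusted p = 0.00377). Ctsb, a widely expressed lysosomal cathepsin, was lower at 92.9 ± 2.16 against 135 ± 3.25 FPKM (-0.53 ± 0.06, adjusted p = 0.00121). Ctsz, a carboxypeptidase, was lower at 117 ± 2.75 against 178 ± 11.1 FPKM (-0.60 ± 0.06, adjusted p = 0.00104). A single cathepsin ran the other way. Ctsw, known from cytotoxic lymphocytes, was higher at 5.45 ± 1.29 against 1.92 ± 0.235 FPKM (1.13 ± 0.18, adjusted p = 0.00574). The T cell markers were also higher in KO, at 4.96 to 6.46 FPKM in sum against 0.649 to 1.42 FPKM in fl. Of these, Cd3d passed the filter through KO and Gr_1, and Trac through KO only, so no test is given for them. In Gr_1 the T cell markers came to 3.83 to 5.51 FPKM in sum, while Ctsw had 0.989 ± 0.405 FPKM there. The 2 that passed the filter differed from each other in Gr_1. Cd3d had 2.29, 4.04 and 0.393 FPKM in KO, Gr_1 and fl, and Trac had 2.27, 0.446 and 0.401 FPKM. The part of T cells in the Ctsw level was not tested.

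The calls of the other 2 were lost when single libraries were left out, though without KO C their log2 changes were -0.94 (Ctsc) and -0.41 (Ctsh). Ctsc, which activates granule serine proteases, had 23.0 ± 4.19 FPKM in KO and 44.7 ± 8.12 FPKM in fl (-0.93 ± 0.19, limma, adjusted p = 0.0144), and its adjusted p was 0.0555 without KO C, 0.0523 without fl A and 0.0533 without fl B. Ctsh, an aminopeptidase, had 53.9 ± 2.61 and 72.3 ± 7.31 FPKM in KO and fl (-0.41 ± 0.08, adjusted p = 0.0126), and its adjusted p was 0.0578 without KO C. No call was made for Ctsl (-0.30), Ctso (-0.17) or Ctsk (-1.09).

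The Gr_1 libraries had the lowest summed level. For Gr_1 against fl 6 of 9 were lower, where 31.4% of all genes were, and 1 was higher. Ctss was at 75.3 ± 15.3 against 345 ± 16.04 FPKM (-2.20 ± 0.18, limma, adjusted p = 1.51e-05) and Ctsc at 10.8 ± 2.15 against 44.7 ± 8.12 FPKM (-1.96 ± 0.19, adjusted p = 3.39e-05). The others that were lower were Ctsz (-1.30), Ctsb (-1.19), Ctsw (-0.57) and Ctsh (-0.55). The Ctsw call was lost without fl A (adjusted p = 0.0688), fl B (0.0505) or Gr_1 B (0.0723). Ctsl, a broad lysosomal endopeptidase, was the one that was higher, at 5.22 ± 0.723 against 3.78 ± 0.222 FPKM (0.37 ± 0.10, adjusted p = 0.00854). With the 10 most abundant genes taken out of the scaling, its adjusted p was 0.0641. For KO against Gr_1, Ctsw (1.70), Ctsc (1.03), Ctss (0.98), Ctsz (0.71) and Ctsb (0.65) were higher, where 26.7% of all genes were, and Ctsl (-0.68) and the bone-resorbing protease Ctsk (-1.39) were lower.

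**Figure D5:**
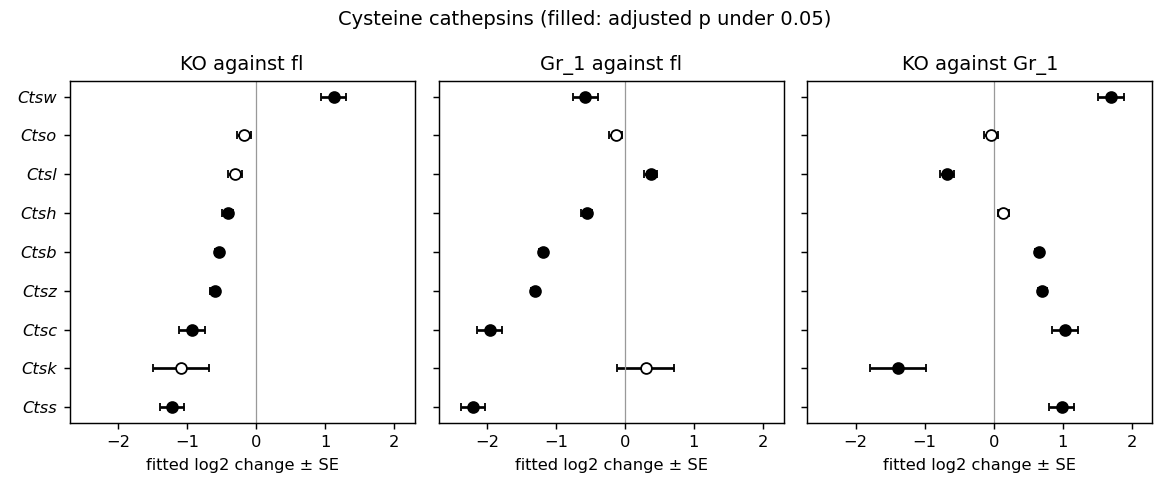
Fitted log2 change (± SE) of the 9 cysteine cathepsins that passed the filter, for KO against fl, Gr_1 against fl and KO against Gr_1; filled points have a limma adjusted p under 0.05. Ctsb, Ctsc, Ctss and Ctsz lie left of 0 in both comparisons with fl and right of 0 for KO against Gr_1.

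Other genes of the cystatin fold did not follow the stefin A genes as a group. Of 18 listed, 5 passed the filter. Cstb (stefin B), the other cytosolic stefin, was lower in the libraries labelled KO than in fl (45.1 ± 0.704 against 65.9 ± 5.67 FPKM, -0.53 ± 0.07, limma, adjusted p = 0.00246). Cst3 (cystatin C), the main secreted inhibitor, was lower too (302 ± 29.8 against 470 ± 52.9 FPKM, -0.63 ± 0.10, adjusted p = 0.00607). Both were also lower in Gr_1 than in fl, at 55.7 ± 1.25 FPKM for Cstb (-0.24) and 257 ± 9.53 FPKM for Cst3 (-0.86). The Cstb call for Gr_1 against fl was lost without fl A (adjusted p = 0.0638) and without Gr_1 B (0.0573). Cstb was also called lower in KO than in Gr_1 (-0.30 ± 0.07, limma, adjusted p = 0.00668), as the members were. That call was lost under quantile normalization (adjusted p = 0.515) and with the 10 most abundant genes left out of the scaling (0.280).

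Cst7 (cystatin F), an inhibitor of lysosomal cathepsins in leukocytes, was the cystatin with the largest difference. It had 75.1 ± 27.5 FPKM in the libraries labelled KO, 6.87 ± 1.66 FPKM in Gr_1 and 65.2 ± 15.2 FPKM in fl. It was lower in Gr_1 than in fl (-3.07 ± 0.28, limma, adjusted p = 2.66e-05) and higher in KO than in Gr_1 (3.23 ± 0.28, adjusted p = 4.98e-05), opposite in sign to the stefin A genes. For KO against fl it was not called (0.16 ± 0.28, adjusted p = 0.759). Ngp, a cystatin-like granule protein of neutrophils, had 13111, 23527 and 10541 FPKM in KO, Gr_1 and fl. It was called higher in Gr_1 than in fl (1.161 ± 0.17, adjusted p = 0.000366), but not under quantile normalization (0.16, adjusted p = 0.294) or with no filter on level (adjusted p = 0.449). Ngp was also called lower in KO than in Gr_1 (-0.86 ± 0.17, limma, adjusted p = 0.00255), as the members were. That call too was lost under quantile normalization and with no filter on level (adjusted p = 0.590). Camp, the cathelicidin, was called in no comparison, with log2 changes of 0.06, 0.36 and -0.30 for KO against fl, Gr_1 against fl and KO against Gr_1.

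Several other protease inhibitors of leukocytes did share the direction of the stefin A genes for KO against fl. Of 20 listed, 9 passed the filter, and 4 were higher in the libraries labelled KO than in fl with none lower, where 4.48% of all genes were higher. Serpinb2, a plasminogen activator inhibitor, had 14.7 ± 0.774 against 8.18 ± 1.80 FPKM (0.79 ± 0.14, limma, adjusted p = 0.00943). Slpi, which blocks neutrophil elastase, had 116 ± 36.8 against 66.6 ± 4.04 FPKM (0.74 ± 0.20, adjusted p = 0.0492). Timp2, a metalloprotease inhibitor, had 14.6 ± 3.51 against 7.75 ± 1.18 FPKM (0.82 ± 0.16, adjusted p = 0.0137), and Serpina3g had 7.82 ± 3.52 against 2.61 ± 1.10 FPKM (1.25 ± 0.31, adjusted p = 0.0372). Serpinb2 alone of the 4 was called without KO C, without fl A or without fl B. With single libraries left out, Slpi was called only without KO B.

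In Gr_1, Slpi (476 ± 34.0 FPKM, 2.82 ± 0.20, limma, adjusted p = 8.45e-06) and Timp2 (62.0 ± 4.01 FPKM, 2.85 ± 0.16, adjusted p = 2.91e-06) were far above fl. Wfdc21 (2024 against 711 FPKM, 1.52 ± 0.16, adjusted p = 5.5e-05) and Serpinb6a (7.44 ± 0.168 against 3.42 ± 0.178 FPKM, 0.93 ± 0.09, adjusted p = 2.91e-05) were higher too. Serpinb1a (-0.19) and Wfdc17 (-0.66) were lower, and both lost the call when single libraries were left out. For KO against Gr_1, Slpi (-2.07), Timp2 (-2.04), Wfdc21 (-1.12) and Serpinb6a (-0.68) were lower, as the members were. Serpina3g (0.99), Serpinb2 (0.97) and Serpinb1a (0.34) were higher. The Serpina3g call was lost without KO C (adjusted p = 0.0728), KO B (0.0833), Gr_1 A (0.0795) or Gr_1 B (0.0519).

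The genes outside the cluster whose levels most resembled the stefin A sum were found by Pearson's r of log2(FPKM + 1) over the 9 libraries, which share 3 groups. The 10 highest of 12282 genes were Fpr2, Mmp8, Scrg1, Ceacam10, Gcnt2, Cxcr2, Il1f9, 1700047M11Rik, Arg2 and Clec4d, with r of 0.996 to 0.999. Such values were common, with 676 genes at 0.95 or above. Fpr2, a formyl peptide receptor, had 55.7, 301 and 11.9 FPKM in KO, Gr_1 and fl, and Mmp8, neutrophil collagenase, had 163, 1156 and 21.04 FPKM. With group means subtracted, the 5 highest were Mmp9 (0.993), Rin2 (0.990), Map2k1 (0.987), Ccdc80 (0.982) and Lcp1 (0.981). Mmp9, gelatinase B of neutrophil granules, was the one of these 5 that is also a listed late neutrophil marker.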

How the data were processed

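Values are the authors' FPKM, 1 deposited column for each library, per the file headers. The submitters' processing notes name featureCounts 1.5.0-p3, DESeq2 1.16.1, mm10 and GRCm38, but no aligner. FPKM times GENCODE M21 exon length gave whole fragments (within 0.02) for 97.2% to 97.5% of values under 1000 fragments per library. The 12289 genes that reached 1 FPKM in 3 or more libraries were fitted with limma 3.58.1 (R 4.3.3) on log2(FPKM + 1), with a mean-variance trend, 1 term per group over 9 libraries, 6 residual degrees of freedom, two-sided p-values adjusted by Benjamini-Hochberg over all genes, and a threshold of 0.05. The fit was tested on simulated data. Members and lists (cathepsins, cystatin-fold genes, other inhibitors, flanking genes, cell type markers) were chosen with earlier results of these data known. A listed late neutrophil marker is not reported here and is in no marker sum. The text names all members, the other stefins, tested cystatin-fold genes, called genes of the other lists, and the genes most like the stefin A sum. Stretches of 50 and 125 bases were compared over all GENCODE M21 transcripts. Coding sequences and gene positions are also from GENCODE M21, and promoters are RefSeq's (GRCm38.p6). Alternatives changed the pseudocount, filter, scaling, libraries, replicate block and test, and 3 on exon length and the summed genes were added after seeing the data. Figures used Python 3.11.15 and matplotlib 3.10.9.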

Additional observations from a re-analysis of the deposited data

How the results depend on the processing

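Directions of the members' changes held under each alternative run. The 1352 genes called for KO against fl became 794 with only the 2 groups fitted, and 573 to 1261 with 1 library left out (573 without KO C, 730 without fl B, 818 without fl A). With a mean of at least 5 FPKM, which tests fewer genes, the Gr_1 against fl comparison called 4869 and the KO against Gr_1 comparison 4464. With 1 library left out they called 6445 to 7601 and 5577 to 7554. Cathepsins called then ranged over 4 to 6 (KO against fl), 6 to 7 (Gr_1 against fl) and 7 to 8 (KO against Gr_1). The log2 change of the stefin A sum ranged over 2.28 to 2.90, 5.41 to 5.66 and -3.22 to -2.60 in the same order. Without Stfa1 it was 3.90 (KO against fl) and 6.98 (Gr_1 against fl), and on 3-exon transcript length 5.91 (Gr_1 against fl). Member changes were larger with a pseudocount of 0.1 FPKM or with voom on recovered fragments (Stfa2l1, KO against fl, 6.78 and 7.10), and voom called 1621 (KO against fl), 7538 (Gr_1 against fl) and 6879 (KO against Gr_1) genes. With the letter of the title as a replicate block, 1037 (KO against fl), 7280 (Gr_1 against fl) and 6469 (KO against Gr_1) genes were called. Of 9 same-letter pairs 1, KO A with fl A, correlated above 0.1 (range -0.06 to 0.14). With 3 libraries per group, these values cannot show whether a letter stands for a shared batch. Leaving the 10 most abundant genes out of the scaling put the median of all genes at 0.05 (KO against fl), -0.14 (Gr_1 against fl) and 0.18 (KO against Gr_1) on the log2 scale. Depth limits the fl values of Stfa2l1, Gm5483, Stfa3 and Stfa2, which rest on 0 to 4 fragments per library.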
